A study of Mus musculus with 3 samples.

Results

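The genes described here are the scavenger and endocytic receptors Stab1, Mrc1, Cd163, Lyve1, Timd4, Folr2, Cd93, Msr1 and Cd36, some of which mark tissue-resident macrophages in other organs. They are 9 of the 32886 gene columns of a single-cell RNA-seq table of mouse kidney immune cells. The list was set by name, with earlier results of these data known. Its members were followed across the myeloid clusters and across the compartments of the kidney. The cells came from untreated wild-type male C57BL/6J mice aged 10 weeks, whose kidneys were cut into the cortex, an outer part (OM) and an inner part (IM) of the medulla before digestion and sorting for the leukocyte marker CD45. The experiment was run at 3 facilities, called the Aachen, Bonn and Hamburg datasets, and the cells of 1 compartment in 1 dataset were treated as 1 library, which gave 9 libraries with the datasets as replicates (n = 3). The number of mice behind each library is not given in the sources used here. With the dataset as block, p-values measure how far the differences between compartments vary from dataset to dataset. The datasets differ in facility as well as in mice. Cells keep the cluster names of the submitters. Resident macrophages are the 5367 cells of Macrophage_1, Macrophage_2, Macrophage_3 and Isg+_Macrophage, and the 8368 myeloid cells also include Malat+_Macrophage, Monocyte, Neutrophils and the conventional dendritic cells cDC1 and cDC2.

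Scavenger receptors are surface proteins with which macrophages bind and internalise altered self molecules, dying cells, lipoproteins and circulating debris. They belong to several unrelated protein families and share this function rather than a sequence. In the kidney, resident macrophages lie around tubules and capillaries in every compartment, and the medulla differs from the cortex in oxygen supply and salt concentration. Among the members, Stab1 encodes stabilin-1, a multidomain receptor for modified lipoproteins and matrix fragments. Mrc1 encodes the macrophage mannose receptor, a lectin for glycoproteins. Cd163 encodes the receptor for haptoglobin-haemoglobin complexes, Lyve1 a hyaluronan receptor, Timd4 a phosphatidylserine receptor and Folr2 folate receptor beta. Cd93 encodes a C-type lectin-like membrane protein that takes part in the clearance of dying cells, Msr1 the class A scavenger receptor and Cd36 the class B receptor for fatty acids and oxidised lipoproteins.

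All 9 members are protein-coding genes in the GENCODE annotation of the mouse genome GRCm38 (mm10), and each interval given here spans the whole gene with its exons and introns. Stab1 lies at chr14:31139013-31168641 on the minus strand, Mrc1 at chr2:14229392-14332057 on the plus strand and Cd163 at chr6:124304656-124330527 on the plus strand. Lyve1 lies at chr7:110850607-110863239 (minus), Timd4 at chr11:46810800-46844332 (plus) and Folr2 at chr7:101839988-101857194 (minus). Cd93 lies at chr2:148436640-148443563 (minus), Msr1 at chr8:39581685-39642673 (minus) and Cd36 at chr5:17781690-17888801 (minus). The members are therefore spread over 7 chromosomes, and the pairs that share one, Mrc1 with Cd93 and Lyve1 with Folr2, are not neighbours.

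Promoter windows of the 250 bases before an annotated transcript start were read from RefSeq on GRCm38.p6 and were found for 6 members (not for Lyve1, Cd93 or Msr1). The window of Cd36 and 1 of the 2 Folr2 windows lie inside the gene intervals above, before a start within the gene. They were searched on both strands for GAGGAA, the core letters bound by ETS factors such as the myeloid regulator PU.1 (TTCCTC on the other strand), and for TGCTGA, the half-site of MAF factors (TCAGCA on the other strand). The motifs do not overlap each other in these windows. The windows of Stab1 and Mrc1, the members that rose most in the medulla below, and of Cd36, which did not pass the test there, are shown 5′ to 3′ in the direction of transcription with the matches in capitals; they lie at chr14:31168642-31168891 (minus), chr2:14229164-14229413 (plus) and chr5:17835897-17836146 (minus).
Stab1: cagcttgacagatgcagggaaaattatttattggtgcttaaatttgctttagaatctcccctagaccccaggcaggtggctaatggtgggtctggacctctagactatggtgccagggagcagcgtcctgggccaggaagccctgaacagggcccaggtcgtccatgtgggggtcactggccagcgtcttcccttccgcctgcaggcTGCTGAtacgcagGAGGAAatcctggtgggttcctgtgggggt
Mrc1: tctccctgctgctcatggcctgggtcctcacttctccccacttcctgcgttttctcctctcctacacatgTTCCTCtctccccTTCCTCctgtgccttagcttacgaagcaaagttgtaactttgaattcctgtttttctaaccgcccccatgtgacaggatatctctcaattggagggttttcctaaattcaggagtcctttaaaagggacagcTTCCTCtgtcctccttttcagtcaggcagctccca
Cd36: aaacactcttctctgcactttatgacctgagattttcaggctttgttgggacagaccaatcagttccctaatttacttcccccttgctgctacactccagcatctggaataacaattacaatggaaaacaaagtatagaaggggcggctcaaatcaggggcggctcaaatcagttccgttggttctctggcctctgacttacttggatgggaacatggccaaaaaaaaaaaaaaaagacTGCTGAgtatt
The Stab1 window held 1 GAGGAA and 1 TGCTGA, which begin 30 and 43 bases before the start. Mrc1 held 3 matches to GAGGAA, all on the other strand, and none to TGCTGA, and Cd36 held 1 TGCTGA and no GAGGAA. Of the windows not shown, Cd163 held neither motif, Timd4 held 2 TGCTGA and each of the 2 Folr2 entries held 1 TGCTGA. Of all 32851 promoter windows of this length, 23.3% held GAGGAA, 16.1% held TGCTGA and 3.7% held both, so that single matches are common and do not mark a bound site.

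The libraries differed in depth. They held 621 to 3677 cells, and the median number of molecules (unique molecular identifiers, UMIs) per cell over all cells was 887 in Aachen, 3290.5 in Bonn and 2943.92 in Hamburg. The resident macrophages of a library numbered 168 (Bonn OM) to 1952 (Aachen OM), with median UMIs of 783 to 1455.5 in Aachen, 4194 to 4735 in Bonn and 2990 to 3737 in Hamburg. The marker genes C1qa, C1qb, C1qc, Cd81, Adgre1, Fcgr1, Csf1r and Cx3cr1 together made up 176 to 265 UMIs per 10000 in every resident library. The paper used C1qc and Cd81 among its markers for this label, so that these sums describe the label and do not test it. The same list reached 141 per 10000 in Malat+_Macrophage, which is outside the resident class, 25.3 in monocytes and 10.0 in cDC2. Cell barcodes shared between libraries of 1 dataset numbered 16 in Aachen, 13 in Bonn and 0 in Hamburg. The barcodes carried 6 different suffixes in Aachen, 3 in Bonn and 1 in Hamburg. For comparison, a Hamburg library shared 1 to 16 barcodes with a library of another dataset. Whether each library was 1 separate run, or the Hamburg compartments shared 1 run, was not tested.

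Across all 20266 cells the members differed widely in abundance. Mrc1 had 4677 UMIs, Cd36 3794, Stab1 3024, Cd93 2294, Msr1 509, Cd163 198, Timd4 33.9, Folr2 3 and Lyve1 0. For Stab1 and Mrc1, 82.2% and 76.4% of all UMIs lay in resident macrophages, and 95.7% and 97.1% in myeloid cells. Cd93, Msr1 and Cd36 were spread more widely, with 62.6%, 56.7% and 56.6% of their UMIs in resident macrophages. Cd163 had 34.1% of its UMIs there although 92.8% of them were myeloid. The 9 members thus fall into 5 that could be compared in resident macrophages and 4 (Cd163, Lyve1, Timd4 and Folr2) whose counts in those cells were too low for the filter on low counts.

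Stab1 was highest in Macrophage_3. Its level there, in UMIs per 1000000 UMIs of the cluster (CPM), was 236 in Aachen, 392 in Bonn and 254 in Hamburg. The mean was 294 ± 85.1 (SD, n = 3 datasets), against 222 ± 20.2 in Malat+_Macrophage, 157 ± 81.7 in Macrophage_1, 101 ± 35.2 in Isg+_Macrophage and 84.4 ± 26.3 in Macrophage_2. Macrophage_3 was above Malat+_Macrophage in 3 of 3 datasets, whereas Malat+_Macrophage was above Macrophage_1 in 2 of 3, so that these neighbours in the order overlap. Among the other myeloid clusters Stab1 was low, with 26.5 ± 23.4 CPM in neutrophils, 10.9 ± 6.29 in monocytes, 3.34 ± 3.58 in cDC1 and 2.96 ± 2.74 in cDC2. The neutrophils also held the resident marker list at 54.98 UMIs per 10000, above monocytes, and its part in their levels of Stab1, Mrc1 and Cd93 was not tested. Outside the myeloid cells, Stab1 averaged 56.8 ± 92.1 CPM in Malat+_T_cell, with 163 in Aachen but 9 UMIs in all datasets together, and 44.5 ± 44.9 in Prolif._cell. These levels are a description, because the clusters were built from the same cells and genes.

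Mrc1 followed a similar order with a larger difference between datasets. In Macrophage_3 it reached 97.3 CPM in Aachen, 508 in Bonn and 581 in Hamburg, and in Malat+_Macrophage 103, 398 and 677. The means of 395 ± 261 and 393 ± 287 CPM could not be ordered, since Macrophage_3 was the higher in 1 of 3 datasets. Macrophage_1 held 211 ± 144 CPM, Macrophage_2 138 ± 88.3 and Isg+_Macrophage 116 ± 111. Unlike Stab1, Mrc1 was present in cDC2, at 9.64, 78.8 and 55.3 CPM in Aachen, Bonn and Hamburg, and it was 3.49 ± 2.22 CPM in cDC1. In each of the 4 resident clusters the Aachen value of Mrc1 was the lowest of the 3 datasets.

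Cd93 was highest in Malat+_Macrophage, with 151 ± 44.1 CPM, and Macrophage_3, with 134 ± 43.9 CPM. It was 86.7 ± 32.6 in Macrophage_1, 71.2 ± 23.6 in Macrophage_2, 43.5 ± 26.7 in neutrophils and 41.7 ± 15.2 in monocytes. Of the 5 members compared below, Cd93 had the smallest share of its UMIs in myeloid cells (82.5%), and among lymphoid clusters it was at 47.1 ± 29.8 CPM in Malat+_T_cell, 37.6 in B_cell_3 (n = 2 datasets), 37.1 ± 2.54 in T_cell_4, 23.0 in B_cell_2 and 21.3 in ILC2.

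The class A and class B receptors had other patterns. Msr1 was highest in monocytes, at 30.0 CPM in Aachen, 39.8 in Bonn and 47.2 in Hamburg, with a mean of 39.0 ± 8.63. It was 28.8 ± 10.7 in Isg+_Macrophage, which lay below monocytes in 2 of 3 datasets and at 31.3 CPM in Aachen, 27.2 ± 5.83 in Macrophage_3, 20.6 ± 4.35 in Macrophage_1 and 14.6 ± 4.47 in Macrophage_2, and 0.279 in cDC1 and 0.836 in cDC2. Cd36 was highest in cDC1, at 177 CPM in Aachen, 230 in Bonn and 240 in Hamburg. The mean of 216 ± 33.8 lay next to 192 ± 26.7 in Macrophage_2, 184 ± 105 in Malat+_Macrophage and 161 ± 90.6 in Isg+_Macrophage, and the spreads of these clusters overlap. Macrophage_1 held 142 ± 39.3 CPM, Macrophage_3 135 ± 25.2 and monocytes 100.5 ± 30.2, whereas cDC2 held 10.9 ± 6.20. The high level in cDC1 and low level in cDC2 thus set Cd36 apart from Mrc1 and Cd163.

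**Figure D1:**
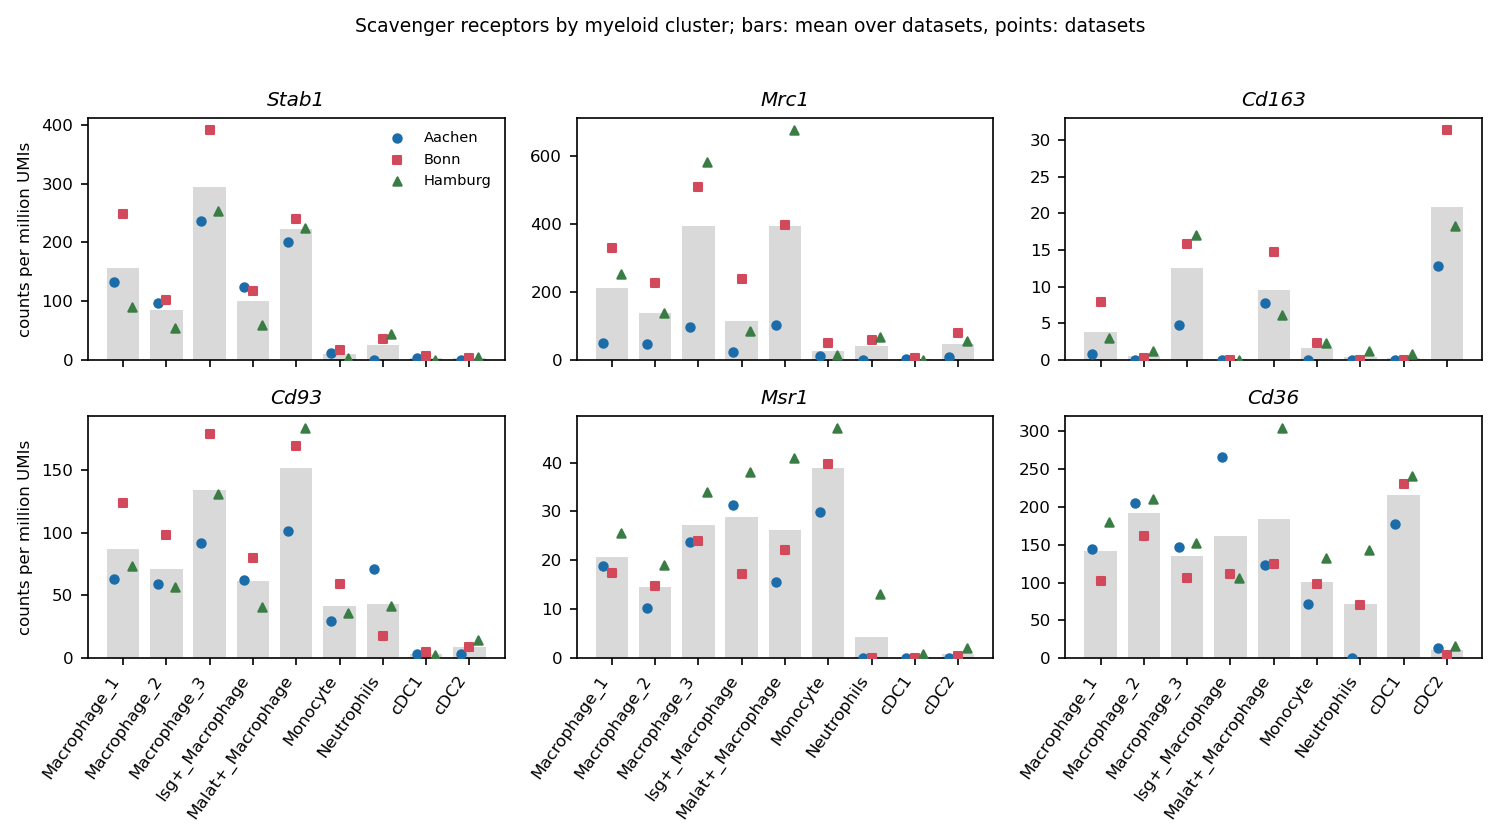
Level of 6 members (CPM, on the vertical axes) in the 9 myeloid clusters, with 1 point per dataset and a bar for the mean. Stab1 and Mrc1 are highest in Macrophage_3 and Malat+_Macrophage, Cd163 in cDC2, Msr1 on average in monocytes, and Cd36 in cDC1 and Macrophage_2.

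The haemoglobin receptor Cd163 was rare in resident macrophages and was highest in cDC2. A UMI of Cd163 was found in 64 of 668 cDC2 cells (9.58%, exact 95% binomial interval 7.46 to 12.1) and in 51 of 5367 resident macrophages (0.95%, 0.708 to 1.25). In cDC2 the level was 12.9 CPM in Aachen, 31.4 in Bonn and 18.2 in Hamburg, and in Macrophage_3 it was 4.75, 15.8 and 17.0. The cDC2 value was the higher in 3 of 3 datasets. The median depth was 5172 UMIs in cDC2 and 1574 in resident macrophages. At a common 500 UMIs per cell, the mean share over all thinning draws was 1.36% in cDC2, 0.149% in resident macrophages and 0.00778% in T and B cells, whose median depth was 2537 UMIs. Without thinning, at most 0.205% of the T and B cells of a library had a Cd163 UMI. Macrophage_1 held 3.90 ± 3.62 CPM and Macrophage_2 0.5 ± 0.61. Such intervals and the limits below cover counting error only.

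Lyve1, Timd4 and Folr2, which mark a resident population in other organs, were nearly absent. Lyve1 was listed at 0 in all 20266 cells, and 0 of 5367 resident macrophages allows a share of up to 0.0559% of cells with a UMI and a level of up to 0.208 CPM. It was 1 of 12713 gene columns that were 0 in every cell, and the table does not tell a gene that was not counted from one without molecules. Folr2 had 3 UMIs, all in Bonn cells, and was found in 2 of 5367 resident macrophages. Timd4 was found in 6 of 5367 resident macrophages (0.112%). In cDC1 it was found in 14 of 303 cells (4.62%, exact interval 2.55 to 7.63), at 0, 13.1 and 9.29 CPM in Aachen, Bonn and Hamburg. At 500 UMIs per cell the mean Timd4 share was 0.255% in cDC1, whose median depth was 6426 UMIs, and 0.0247% in resident macrophages. All Timd4 UMIs were in myeloid cells, and none was in an Aachen cell. In Aachen, 35 gene columns had a value in exactly 1 cell and 495 in exactly 3 cells. These numbers were 230 and 477 in Bonn and 1805 and 630 in Hamburg. Whether very rare genes were set to 0 in Aachen or Bonn before deposit was not tested here.

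The first question was whether the members differ between medulla and cortex in resident macrophages. UMIs were summed per library, scaled by the trimmed mean of M values (TMM) and tested by quasi-likelihood in edgeR, blocking on the dataset, with Benjamini-Hochberg adjusted p-values over all 8687 genes tested. Stab1, Mrc1 and Cd93 were higher in the medulla (mean of OM and IM), and Msr1 and Cd36 did not pass the test. These were 3 of the 5 members tested and of the 9 in all, with 0 lower. In the same fit 1.24% of all genes tested passed in either direction and 0.645% were higher in the medulla. The median log2 difference was 0.66 over the 5 members tested and 0.0058 over all genes tested. The members were chosen with earlier results of these data known. Comparisons of their calls with all genes, here and below, are therefore a description.

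Stab1 had TMM-scaled levels of 82.1, 274 and 127 CPM in the Aachen cortex, OM and IM. In Bonn they were 93.5, 218 and 242 CPM, and in Hamburg 36.3, 127 and 104 CPM. The 3 cortical libraries were the lowest of their own dataset in each case, and over all datasets the highest cortical value (93.5) lay below the lowest medullary value (104). The means were 70.6 ± 30.3 CPM in cortex, 206 ± 74.5 in OM and 158 ± 73.6 in IM (SD, n = 3). The log2 difference between medulla and cortex was 1.40 ± 0.19 (SE; adjusted p = 0.00477), with 1.17 in Aachen, 1.28 in Bonn and 1.63 in Hamburg.

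Mrc1 was at 54.7, 104 and 52.3 CPM in the Aachen cortex, OM and IM, at 187, 356 and 316 in Bonn and at 111, 294 and 284 in Hamburg. Both medullary libraries exceeded the cortex in Bonn and Hamburg. In Aachen the OM alone did, and the groups overlapped between datasets because all Aachen values were low. The log2 difference was 0.97 ± 0.18 (adjusted p = 0.0176), with 0.42 in Aachen, 0.84 in Bonn and 1.37 in Hamburg.

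Cd93 was at 63.3, 113 and 67.2 CPM in the Aachen cortex, OM and IM, at 75.3, 155 and 113 in Bonn and at 50.9, 88.4 and 61.0 in Hamburg. The order was the same in each dataset, with the OM highest and the cortex lowest. The log2 difference between medulla and cortex was 0.66 ± 0.13 (adjusted p = 0.0268). It was the smallest of the 3 differences that passed.

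Msr1 was at 17.1, 27.9 and 20.5 CPM in the Aachen cortex, OM and IM, at 14.7, 13.2 and 15.3 in Bonn and at 10.4, 30.6 and 30.5 in Hamburg. The Hamburg medulla stood above its cortex, whereas the 3 Bonn values were close to each other. The log2 difference of 0.53 ± 0.26 had a 95% interval from -0.02 to 1.08 (adjusted p = 0.515), so that neither no difference nor one as large as that of Mrc1 lies outside it.

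Cd36 was at 193, 229 and 237 CPM in the Aachen cortex, OM and IM, at 124, 136 and 83.3 in Bonn and at 179, 166 and 169 in Hamburg. It was higher in the medulla in Aachen and lower in the Bonn IM. The log2 difference was -0.04 ± 0.15 with a 95% interval from -0.35 to 0.28 (adjusted p = 0.987). The differences of Stab1 and Mrc1 lie above this whole interval, but the difference between members was not tested.

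The 3 calls differed in how far they rested on single datasets and libraries, which were left out in turn (single libraries after the data had been seen). Stab1 lost its call without the Hamburg dataset (log2 difference 1.28, adjusted p = 0.112) and kept it without any other dataset or single library. Mrc1 lost its call without the Hamburg dataset (0.70, adjusted p = 0.441), without the Hamburg cortex (0.74, adjusted p = 0.181), OM (0.97, adjusted p = 0.0566) or IM (0.86, adjusted p = 0.0518), and without the Bonn cortex (1.08, adjusted p = 0.0654). Cd93 lost its call without the Bonn or the Hamburg dataset and without any 1 of their 6 libraries, with log2 differences from 0.51 to 0.71 and adjusted p from 0.0547 to 0.464, and DESeq2 did not call it (adjusted p = 0.125). No direction changed for these 3 members.

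**Figure D2:**
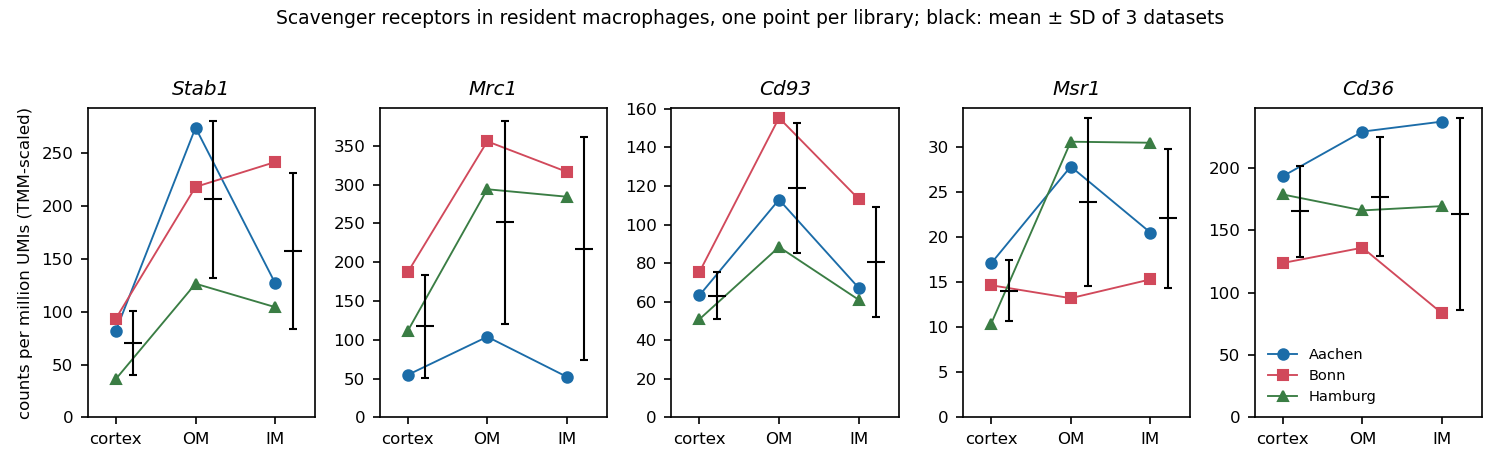
Level of 5 members in resident macrophages (TMM-scaled CPM, vertical axes starting at 0) by compartment, with 1 point per library, a line for each dataset, and the mean ± SD of the 3 datasets in black. Stab1 and Cd93 are lowest in the cortex in each dataset, Mrc1 is low throughout Aachen, and Cd36 has no common direction.

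The OM and IM were also compared with the cortex separately. In the OM, 3 of 5 members passed, against 0.852% of all genes: Stab1 had a log2 difference of 1.58 ± 0.21 (adjusted p = 0.00351), Mrc1 of 1.11 ± 0.19 (adjusted p = 0.0219) and Cd93 of 0.93 ± 0.15 (adjusted p = 0.0139). In the IM, 1 of 5 members passed, against 0.196% of all genes: Stab1 had a log2 difference of 1.22 ± 0.21 (adjusted p = 0.0333), whereas Mrc1 was at 0.83 ± 0.20 (adjusted p = 0.119) and Cd93 at 0.39 ± 0.15 (adjusted p = 0.518). A gene past the threshold in 1 part of the medulla only is not thereby shown to differ between OM and IM. In the direct comparison of OM with IM, 0 of 5 members and 0% of all genes passed with either edgeR or DESeq2, while 267 genes had an unadjusted p under 0.05 in edgeR and 61 in DESeq2. Cd93 was the 1 member among them in edgeR, with a log2 difference of 0.54 ± 0.14 in favour of the OM (adjusted p = 1), and Stab1 was at 0.36 ± 0.19. Msr1 and Cd36 passed in none of these comparisons.

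The make-up of the resident class also differed between compartments. Macrophage_3, the cluster with the highest Stab1, made up 0%, 44.7% and 1.17% of the resident macrophages of the Aachen cortex, OM and IM, 7.05%, 42.9% and 43.1% in Bonn and 0%, 23.0% and 15.4% in Hamburg. Without Macrophage_3, 0 of 5 members passed in edgeR, and 6 genes passed in all. Leaving it out took cells with high Stab1 mostly from medullary libraries, so that a smaller Stab1 difference was partly built in. The log2 difference was then 1.11 ± 0.22 for Stab1 (adjusted p = 0.0873), 0.68 for Mrc1 (adjusted p = 0.157) and 0.47 for Cd93 (adjusted p = 0.194). All of them kept their direction. That fit still compared different mixtures of clusters: in Bonn, Macrophage_2 was 449 of 539 resident cells in cortex, 54 of 168 in OM and 67 of 642 in IM, and Macrophage_1 numbered 24, 30 and 285 cells. A higher level in the summed class and a larger share of Macrophage_3 therefore moved together in OM and IM, except in the Aachen IM, where Macrophage_3 was 1.17% of the cells and Stab1 was still 127 CPM against 82.1 CPM in the cortex. In that library Mrc1 was 52.3 CPM against 54.7 in the cortex and Cd93 67.2 against 63.3.

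Sums of marker genes of other cell types differed between the compartments as well. Whether these UMIs came from other cells or from the macrophages themselves was not tested. The 7 tubular epithelial markers summed to 0.253 to 0.330 UMIs per 10000 in the resident cells of the cortex, 2.71 to 4.50 in the OM and 0.634 to 7.80 in the IM, mostly from Fxyd2 and Kap. By cluster, this sum was 7.23 in Macrophage_3 and 3.95 in Macrophage_1, against 0.555 in Macrophage_2 and 0.368 in monocytes. The 4 platelet markers summed to 0.601 to 1.08 in cortex, 1.87 to 4.85 in OM and 1.28 to 2.44 in IM. This sum was Pf4, with 2942 UMIs in 1400 resident cells, against 16.9 of Ppbp, 5.86 of Itga2b and 3.97 of Gp9, so that it does not stand for platelet transcripts in general. The 5 monocyte markers summed to 1.53 to 6.05 in cortex, 0.440 to 2.52 in OM and 1.36 to 2.86 in IM, with 6.05, 2.52 and 1.36 in Bonn. Ccr2 led this list in the resident cells, with 2614 UMIs against 522 of Ly6c2 and 509 of Plac8. It was lower in the medulla in each dataset, by log2 differences of -0.92, -1.39 and -0.73 (-1.01 in edgeR, adjusted p = 0.098). The T cell markers summed to 0.0731 to 1.90 in cortex, 0.0782 to 0.494 in OM and 0.0689 to 1.03 in IM, and the 4 B cell markers ranged from 1.04 to 5.31 in cortex against 0.549 to 1.90 in the medulla. The part of these transcripts in the members' differences was not tested beyond the following. Without resident cells with markers of other cell types, 4793 cells remained, and 2 of 5 members passed for medulla against cortex. After leaving out every resident cell with a UMI of a tubular marker, an alternative added after the data had been seen, 3910 cells remained and 1 of 5 members passed. Stab1 was then at 1.10 ± 0.19 (adjusted p = 0.0273), Mrc1 at 0.84 (adjusted p = 0.0736) and Cd93 at 0.50 (adjusted p = 0.333). Endothelial cells also express Stab1 and Cd93 in some vessels. The 9 endothelial markers summed to 0.2 to 0.422 UMIs per 10000 in cortex, 0.0220 to 0.284 in OM and 0.136 to 0.398 in IM, and these ranges overlapped. Most of this sum was Pecam1, with 193 UMIs in 179 resident cells, and each other marker had 63 UMIs (Kdr) or fewer. The part of endothelial transcripts in Stab1 and Cd93 was not tested.

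The next comparison asked whether the members differed between medulla and cortex within a cluster. In Macrophage_1, 0 of 5 members passed, against 0.516% of 6978 genes. Stab1 was at a log2 difference of 0.87 ± 0.26 (adjusted p = 0.166), Mrc1 at 0.67 ± 0.24 (adjusted p = 0.334), Cd93 at 0.59 ± 0.23 (adjusted p = 0.464), Msr1 at 1.15 ± 0.45 (adjusted p = 0.494) and Cd36 at -0.01 with an interval from -0.38 to 0.37. The unadjusted p was under 0.05 for 4 of the 5 in edgeR and for 2 in DESeq2, which called 0. The Bonn cortex contributed 24 cells of this cluster, and without the Bonn dataset Stab1 passed with a log2 difference of 1.18 (adjusted p = 0.0335).

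In Macrophage_2, 0 of 4 members passed, against 0.02% of 4989 genes, with Stab1 at 0.48 ± 0.20 (adjusted p = 0.805) and Mrc1 at 0.32 (adjusted p = 0.999). The unadjusted p was under 0.05 for 1 of them in edgeR and for 0 in DESeq2. The difference between both effects of medulla, tested as an interaction in edgeR, passed for 0 of the 4 members tested in both clusters and for 0% of 6111 genes (269 at an unadjusted p under 0.05), Msr1 having passed the filter on low counts in Macrophage_1 only. For Stab1 it was -0.07 ± 0.35 with an interval from -0.79 to 0.64. An effect in Macrophage_1 that is larger or smaller than in Macrophage_2 by up to these bounds thus lies within the error.

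**Figure D3:**
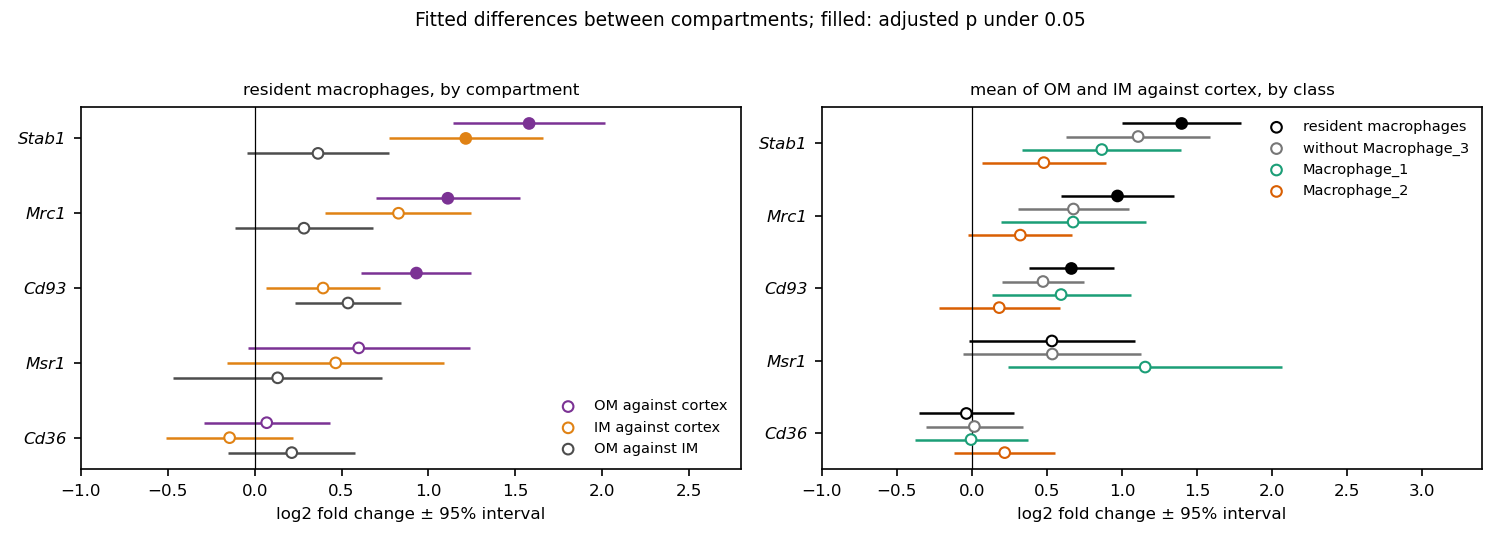
Log2 fold change of the tested members (horizontal axis) from edgeR with the dataset as block, with 95% intervals, filled points for an adjusted p under 0.05 and a line at 0 for no difference. The left panel compares the compartments pairwise in resident macrophages, where Stab1, Mrc1 and Cd93 are filled for OM against cortex and Stab1 for IM against cortex, and the right panel compares medulla with cortex in all resident macrophages, without Macrophage_3, in Macrophage_1 and in Macrophage_2, where filled points appear in all resident macrophages only.

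Macrophage_3 could not be fitted, because it had at least 20 cells in both cortex and medulla in the Bonn dataset alone. There Stab1 was at 378 CPM in cortex (38 cells), 439 in OM (72 cells) and 378 in IM (277 cells), and Mrc1 at 480, 635 and 470. The cortical cells of Macrophage_3 in this dataset thus carried Stab1 at the level of those of the IM, with no replicate. Neutrophils could not be fitted for the same reason.

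No member passed in the remaining clusters in edgeR, the only tool run on them. In Malat+_Macrophage 0 of 4 passed, against 0.0587% of all genes, and Stab1 was at 0.94 ± 0.34 (unadjusted p = 0.0111, adjusted p = 0.779). In Isg+_Macrophage 0 of 3 passed, against 0.683%, and Mrc1 was at 1.83 ± 0.86 (unadjusted p = 0.0415, adjusted p = 0.693). These were the members with an unadjusted p under 0.05 in each of these clusters. In monocytes 0 of 5 passed, against 0.332%, in cDC1 0 of 1, against 1.11%, and in cDC2 0 of 2, against 0.304%, with none at an unadjusted p under 0.05. Cd36 in cDC1, where its level was highest, was at -0.13 ± 0.24.

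The effect of medulla was also compared between resident macrophages and cDC2. Mrc1 was the 1 member that passed the filter on low counts in both classes. Its interaction in edgeR was 0.46 ± 0.47 with an interval from -0.48 to 1.41 (adjusted p = 1), while 0.221% of 9064 genes passed. None of the 6 members in this fit passed. Cd163 was at 2.78 ± 0.88 with an interval from 1.01 to 4.55 (unadjusted p = 0.00273, adjusted p = 0.45), and Cd93 at 1.38 ± 0.61 (unadjusted p = 0.0294). In resident macrophages alone Cd163 was below the filter, with 1, 4 and 0 UMIs in the Aachen cortex, OM and IM, 2, 1 and 45 in Bonn and 0.976, 7.86 and 5.87 in Hamburg. Most of its resident UMIs were therefore from the Bonn IM. In cDC2, where Cd163 passed the filter, its log2 difference between medulla and cortex was 0.03 ± 0.46.

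A higher summed level can come from more cells with the transcript or from more molecules per cell. The share of cells with a UMI cannot tell these apart here. Few cells held a UMI of a member at equal depth, so that the share follows the mean level. It was used to compare the compartments at equal depth. Each resident cell was therefore thinned to 500 UMIs, which left out 12 to 183 of the cells of an Aachen library and no cell of the others, and the share of cells with a UMI was compared by an exact two-sided permutation of compartments within datasets (27 arrangements, smallest p 0.037), adjusted over the 8 members with a UMI. A single member at that smallest p has an adjusted p of 0.296, so that the adjusted threshold could be passed only if most members reached it together. In 1 random draw, Stab1 was found in 3.72%, 9.72% and 4.04% of thinned cells of the Aachen cortex, OM and IM, in 5.75%, 4.76% and 13.1% in Bonn and in 3.02%, 5.18% and 10.0% in Hamburg. The medulla, as the mean of OM and IM, was higher in 3 of 3 datasets, but the Bonn OM lay below its cortex. The exact test did not pass (p = 0.222, adjusted p = 0.533).

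The low Bonn OM share came from that draw: 8 of 168 cells held a Stab1 UMI, against 20.3 expected as the mean over all possible draws, a measure added after the data had been seen. By this mean at 500 UMIs, Stab1 was expected in 3.23%, 9.68% and 4.91% of cells of the Aachen cortex, OM and IM, in 5.50%, 12.1% and 12.8% in Bonn and in 1.69%, 6.58% and 5.63% in Hamburg. The cortex was then the lowest compartment of each dataset (exact p = 0.037, the smallest possible, adjusted p = 0.0988). A draw at 1000 UMIs gave the same order of cortex and medulla, with shares of cortex, OM and IM of 6.23%, 16.1% and 11.0% (Aachen), 11.4%, 24.8% and 22.0% (Bonn) and 2.16%, 11.4% and 12.9% (Hamburg; exact p = 0.037, adjusted p = 0.130 over 7 members). The Stab1 share was thus higher in both parts of the medulla in every dataset by these measures, and not by the draw at 500 UMIs. When the summed counts of that draw were fitted in edgeR, Mrc1 kept its call for medulla against cortex (1.08 ± 0.23, adjusted p = 0.0165), Stab1 lost it (1.10 ± 0.31, adjusted p = 0.117), and Cd93 was at 0.42 (adjusted p = 0.667).

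Mrc1 was found in 5.83%, 11.6% and 11.3% of thinned cells of cortex, OM and IM on average in the draw at 500 UMIs (exact p = 0.0741, adjusted p = 0.533). In Aachen the shares of 2.69%, 3.05% and 2.28% were nearly equal. The mean over all draws was 6.27%, 12.3% and 10.3% (exact p = 0.037, adjusted p = 0.0988), and a draw at 1000 UMIs gave 12.2%, 23.9% and 18.7% (exact p = 0.0741, adjusted p = 0.130). Msr1 was expected in 0.696%, 1.15% and 1.10% at 500 UMIs over all draws (exact p = 0.037, adjusted p = 0.0988), with the Bonn values of 0.846%, 0.882% and 0.936% close to each other. Cd93 was found in 3.55%, 5.74% and 3.56% on average (exact p = 0.259) and was highest in the OM in each dataset, and Cd36 was found in 7.08%, 7.50% and 5.85% (exact p = 0.778). No member passed after adjustment in any of these settings. Without thinning, Stab1 was found in 18.5%, 35.9% and 33.3% of cells (exact p = 0.037, the smallest possible, adjusted p = 0.296). T and B cells, which should lack Stab1 and Mrc1, gave a background of 0 to 1.10% for Stab1 and 0 to 0.316% for Mrc1 when thinned to the same depth, with the highest Stab1 share in the Aachen OM (8 of 728 cells). The thinned resident shares of both lie above this background in every library. Cd93 and Cd36 were found in 0.169 to 0.793% and 0.176 to 0.824% of the same T and B cells. They are given as lymphocyte levels and not as a background, since single lymphoid clusters held them in each dataset: Cd93 was at 34.2, 38.7 and 38.4 CPM in T_cell_4 and Cd36 at 94.6, 30.5 and 35.0 CPM in B_cell_2 in Aachen, Bonn and Hamburg.

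**Figure D4:**
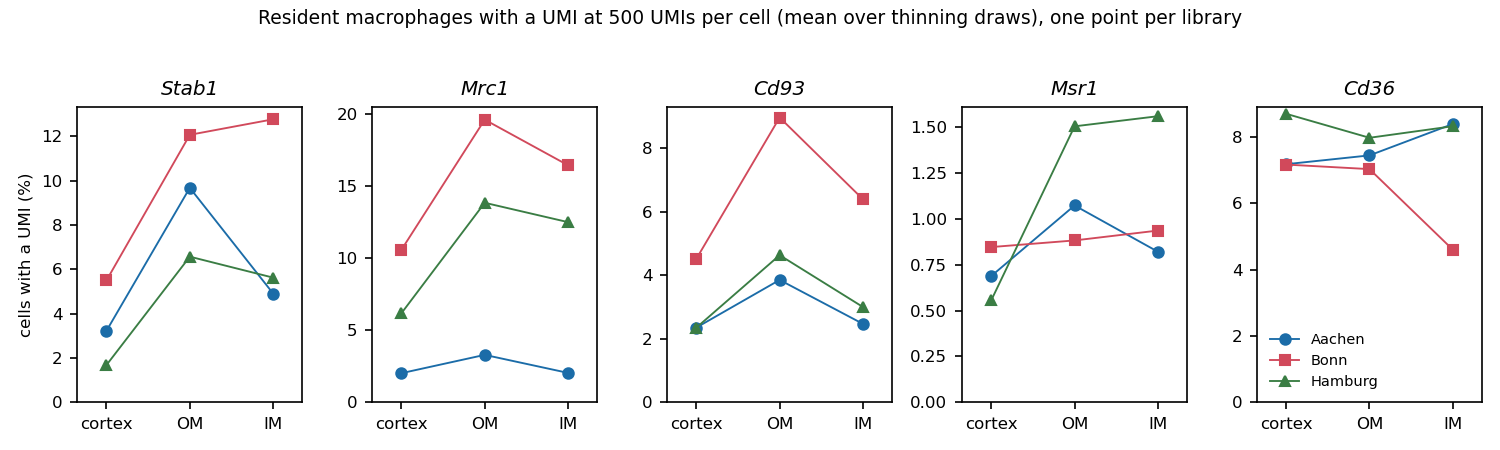
Share of resident macrophages with a UMI of each member at 500 UMIs per cell (%, vertical axes starting at 0), as the mean over all possible thinning draws, with 1 point per library and a line for each dataset. The Stab1, Mrc1, Cd93 and Msr1 shares are lowest in the cortex in each dataset, by little for Mrc1 and Cd93 against the IM in Aachen and for Msr1 in Bonn, and Cd36 has no common direction.

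Stab1 UMIs in lymphocytes moved in the same order in Aachen. In the summed T and B cells Stab1 was at 0, 30.5 and 13.3 CPM in the Aachen cortex, OM and IM (0, 24 and 16 UMIs), without TMM scaling. The TMM-scaled levels in the resident macrophages of that dataset were 82.1, 274 and 127 CPM. In the T and B cells of Bonn and Hamburg Stab1 stayed between 0 and 1.86 CPM. Most Hamburg values are not whole numbers, and whether they had been corrected before deposit was not tested. The part of such lymphocyte UMIs in the Aachen difference was not tested either.

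Cells with UMIs of a pair of members were counted against the number that the shares of each member give. Among the 5145 thinned resident macrophages, 44 held both Stab1 and Mrc1, against 37.5 from the shares within each library and cluster. For Mrc1 and Cd93 the values were 40 against 21.3, with 6 against 3.20 in Aachen, 23 against 12.7 in Bonn and 11 against 5.36 in Hamburg. Cells with both Stab1 and Cd93 numbered 20 against 19.4, those with both Mrc1 and Cd36 30 against 24.1, and those with both Msr1 and Cd36 1 against 3.69. At these low numbers no further reading was made.

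Over 69 sums of a myeloid cluster in a library with at least 20 cells, log2 levels of Stab1 correlated with those of Cd93 (Pearson r = 0.86) and Mrc1 (0.78), and Mrc1 with Cd93 at 0.73, whereas Mrc1 and Cd36 were at 0.19. The sums share libraries and depth, so these values are a description. Of 6236 genes, the nearest to Stab1 were Lilra5 (0.90), the transcription factor Maf (0.90) and Serinc3 (0.88). The nearest to Mrc1 were Plxdc2 (0.90), Stard9 (0.87) and Gm15523 (0.85), and to Cd93 the receptor Csf1r (0.90), Lilra5 (0.90) and the lysosomal membrane gene Lamp2 (0.89). Msr1 had lower values, with Lamp1 (0.73), Ctsb (0.68) and Klra2 (0.65), and so did Cd36, with Rab7b (0.69), Cadm1 (0.66) and Psap (0.64).

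Related genes of the same pathways were read in the same edgeR fit of resident macrophages in medulla against cortex. Of 20 other scavenger receptors 6 were tested and 0 passed, with a median log2 difference of -0.03: Cd14, a lipopolysaccharide co-receptor, was at 0.82 (adjusted p = 0.0679), the chemokine and scavenger receptor Cxcl16 at -0.01, the lysosomal Cd68 at -0.05 and the lipoprotein receptor Scarb1 at -0.85 (adjusted p = 0.079). The unadjusted p was under 0.05 for 3 of the 6, the third being the lipoprotein receptor Lrp1 at 0.54 (adjusted p = 0.315), and DESeq2 called 0. Of 15 endocytic lectins, the group to which Mrc1 is closest in function, 5 were tested and 2 were higher, with a median of 0.81: Asgr2, an asialoglycoprotein receptor subunit, by 2.33 ± 0.36 (adjusted p = 0.00951), and Mgl2, a galactose-type lectin, by 0.81 ± 0.18 (adjusted p = 0.0447). Clec10a, also a galactose-type lectin, was at 1.02 (adjusted p = 0.133), and Cd209a, a mannose-binding lectin, at -0.08.

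Among 12 genes of phosphatidylserine uptake, the function of Timd4, 6 were tested and 1 was higher. Gas6, a bridging ligand between phosphatidylserine and the TAM receptors, averaged 14.0 CPM in cortex, 71.7 in OM and 49.2 in IM, a log2 difference of 2.34 ± 0.28 (adjusted p = 0.00219), and its receptor Axl was at 0.08. The endocytic adaptor Dab2 was at 0.41 (adjusted p = 0.292) and the integrin chain Itgav at -0.41 (adjusted p = 0.255). Of 11 genes of fatty acid handling, which act with Cd36, 9 were tested and 1 was higher, the cholesterol exporter Abca1, by 1.31 ± 0.24 (adjusted p = 0.0176), which DESeq2 did not call. The lysosomal lipase Lipa was at 0.0011 and the lipid droplet gene Plin2 at -0.02, and the lipoprotein lipase Lpl at -0.65 (adjusted p = 0.209). Of 9 genes of haem and iron handling downstream of Cd163, 8 were tested and 0 passed in edgeR or DESeq2 (3 at an unadjusted p under 0.05 in edgeR), with the ferritin chains Fth1 at -0.33 and Ftl1 at -0.22 and the haem oxygenase Hmox1 at 0.20. Of 9 partners of Lyve1 and Folr2 in hyaluronan and folate handling, 2 were tested and 0 passed in edgeR or DESeq2 (1 at an unadjusted p under 0.05 in edgeR), Ggh at 0.11 and Cd44 at -0.39. Of 6 regulators, 1 was higher: Maf, whose half-site was searched above, averaged 128 CPM in cortex, 302 in OM and 183 in IM, a log2 difference of 0.86 ± 0.18 (adjusted p = 0.0295), while Klf4 was at -0.09.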

How the data were processed

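The authors aligned to mm10 with Cell Ranger, and filtered (200 to 4000 genes per cell, up to 20% mitochondrial UMIs), integrated and clustered the cells in Seurat. The deposited table holds expected counts of UMIs per gene and cell without scaling to depth. The values are whole in Aachen and Bonn, and 0.118% of nonzero values are whole in Hamburg, where counts are thus estimates. How the Hamburg values were made is not given in the sources used here. Authors' clusters were used, and no doublet caller was run here. The resident class and the other clusters were summed per library (at least 20 cells per cluster), rounded, filtered with filterByExpr and tested in edgeR 4.0.16 (glmQLFTest, TMM, R 4.3.3; Benjamini-Hochberg threshold 0.05) with the dataset as block. DESeq2 1.42.0 was an alternative. The datasets pair the libraries: deviations from the compartment means correlated at 0.80 to 0.92 within a dataset (9 pairs, 8687 genes) and at -0.83 to 0.58 between datasets (18 pairs). Log2 CPM with a prior count of 2 gave each dataset's own difference. Shares of cells were taken from 1 random thinning draw and, added after the data had been seen, as the hypergeometric mean over all draws, with an exact permutation test (scipy 1.17.1) and, for single shares, exact Clopper-Pearson 95% intervals, with 3 counts as the limit for a count of 0. Named genes were the 9 members, the 3 genes nearest to each tested member, and of each gene list the genes past the threshold plus the 3 most abundant (1 gene is not reported here); Scarb1, Lrp1 and the marker genes beside results were added after their values were seen. The members and lists were chosen with earlier results of these data known. Scripts were tested on simulated data.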

Additional observations from a re-analysis of the deposited data

How the results depend on the processing

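In resident macrophages, 3 of 5 members differed between medulla and cortex, 3 between OM and cortex and 1 between IM and cortex, and 108 genes differed between medulla and cortex. With cells thinned to 500 UMIs these numbers were 1 (Mrc1, while Stab1 at 1.10 lost its call, adjusted p = 0.117), 1, 0 and 37, without Macrophage_3 0, 0, 0 and 6, and without cells with tubular markers (added after the data had been seen) 1, 1, 0 and 10. With no replicate block, that is without the pairing by dataset, they were 0, 0, 0 and 0, with 119 genes at an unadjusted p under 0.05 for medulla against cortex. Without cells with markers of other types these numbers were 2, 3, 1 and 104. DESeq2 called 48 genes, no filter on low counts 382 and the addition of Malat+_Macrophage 68. For IM against cortex, 3 members passed without the filter and 0 with Malat+_Macrophage. Without the filter Cd163 was also called for medulla against cortex (2.56 ± 0.74, adjusted p = 0.0241), with most of its UMIs in 1 library. Leaving out 1 dataset or 1 library gave 0 to 3 members for medulla, 0 to 3 for OM and 0 to 2 for IM against cortex, 6 (without Hamburg) to 262 genes (without the Aachen IM), and 0 to 1 members in Macrophage_1. For IM against cortex it was 2 without the Aachen dataset or its IM and 0 without the Bonn or Hamburg dataset, the Bonn cortex or IM, or any Hamburg library. Over 21 alternatives Stab1 passed in 17 (log2 1.10 to 1.53), Mrc1 in 13 (0.68 to 1.10), Cd93 in 6 (0.42 to 0.71) and Cd36 in 0 (-0.19 to 0.14). The sign of Cd36, which never passed, turned with no replicate block (0.0403), without Macrophage_3 (0.0162), without tubular marker cells (0.14) and with a dataset or library left out (-0.19 to 0.10). In Macrophage_1, Cd93 turned with thinned cells (-0.0703) and Cd36 with no replicate block (0.0200) and with a dataset left out (-0.13 to 0.11). Where fewer cells, samples or genes entered, power also changed; the causes were not tested further.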
